A study of Mus musculus with 14 samples.

Results

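Lungs of mice bearing 4T1 tumours were compared with lungs of mice bearing 67NR tumours, gene by gene. The comparison took the 4 arrays of 4T1 lung and the 5 arrays of 67NR lung by their sample titles, which made 9 of the 14 arrays of the series. The other 5 arrays came from normal lungs, whose values are given for orientation. All animals were BALB/c mice. In the 4T1 group the metastatic mammary carcinoma line 4T1 had been injected into the mammary fat pad, and in the 67NR group the non-metastatic line 67NR. Normal mice had been given PBS without cells. Tumour-bearing mice were killed at day 6 or when tumours were near 50 mm3, and blood had been flushed from the lung vessels with PBS before RNA was made. Age and sex are not given in the sources used here.

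Since 1 cell line stood for each class, metastatic ability and any other difference between the lines cannot be told apart. The sources used here give neither batch nor hour of collection. The labels number the samples within a group without stating that each was a separate mouse. The p-values thus measure only spread among the arrays, which may be technical. The tissue label was checked against markers of lung. The surfactant protein genes Sftpa1, Sftpb, Sftpc and Sftpd, the club cell secretoglobin Scgb1a1, the alveolar type 1 gene Ager and the endothelial genes Cldn5 and Cdh5 each had an intensity of at least 4542 on all 9 arrays. Array medians lay between 113.2 and 116.1, and control probe sets for Gapdh had a 3' to 5' ratio, as log2, of -0.44 ± 0.04 (SD, n = 4) in 4T1 and -0.49 ± 0.08 (SD, n = 5) in 67NR lungs.

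As background, neutrophils are short-lived granulocytes that mature in the bone marrow under G-CSF and leave it through the balance of the chemokine receptors CXCR2 and CXCR4. They carry successive sets of granules, whose proteins are made at different steps of maturation, and they hold large amounts of the calcium-binding proteins S100A8 and S100A9 in the cytosol. The 4T1 line is widely known for raising the number of neutrophils and immature myeloid cells in its host. Tissues also keep a circadian clock, in which the factors CLOCK and ARNTL drive the Per, Cry and Nr1d genes and output genes such as Dbp, whose products then repress or modulate the loop.

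Values are deposited probe set intensities, and changes are differences of mean log2(intensity + 16), 4T1 minus 67NR, from a limma fit of all 14 arrays. Of 10916 genes tested, 61 were higher and 22 lower in 4T1 lung at a Benjamini-Hochberg adjusted p under 0.05, which is 0.559% and 0.202% of genes, or 0.76% in both directions together. An unadjusted p under 0.05 was reached by 1358 genes. Over all tested genes the changes were balanced, with 5417 positive and 5499 negative. The changes of the 61 higher genes ranged from 0.21 to 3.71 on the log2 scale, and 19 of these genes differed by at least 2-fold. Those of the 22 lower genes ranged from -0.68 to -0.25, and 0 of them differed by 2-fold. The intensities of the 4T1 and 67NR arrays did not overlap for 59 of the 61 higher genes, the exceptions being Ifitm6 and Mthfd1l, or for any of the 22 lower genes. Over all tested genes the groups did not overlap for 4.56%, with 2.35% higher and 2.22% lower in 4T1 lung. Tested one by one without a filter, 60 of 45037 probe sets other than controls were higher (0.133%) and 17 lower (0.0377%), a setting chosen after seeing the data.

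The counts of calls moved with single arrays. Without 4T1 replicate 1 the fit called 32 genes higher and 9 lower, and without 4T1 replicate 4 it called 38 and 8. Without 67NR replicate 5 it called 109 and 61. The lower calls also numbered 12 without 4T1 replicate 2, 14 without 67NR replicate 1 and 13 without 67NR replicate 2. Of the genes called, 28 higher and 6 lower ones passed in each of the 14 fits that left out 1 array. The array means of the other 2 comparisons share these arrays: 45 genes (0.412%) were higher and 0 lower in 4T1 than in normal lung, and 0 passed in 67NR against normal lung, where limma gave 997 genes an unadjusted p under 0.05.

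**Figure D1:**
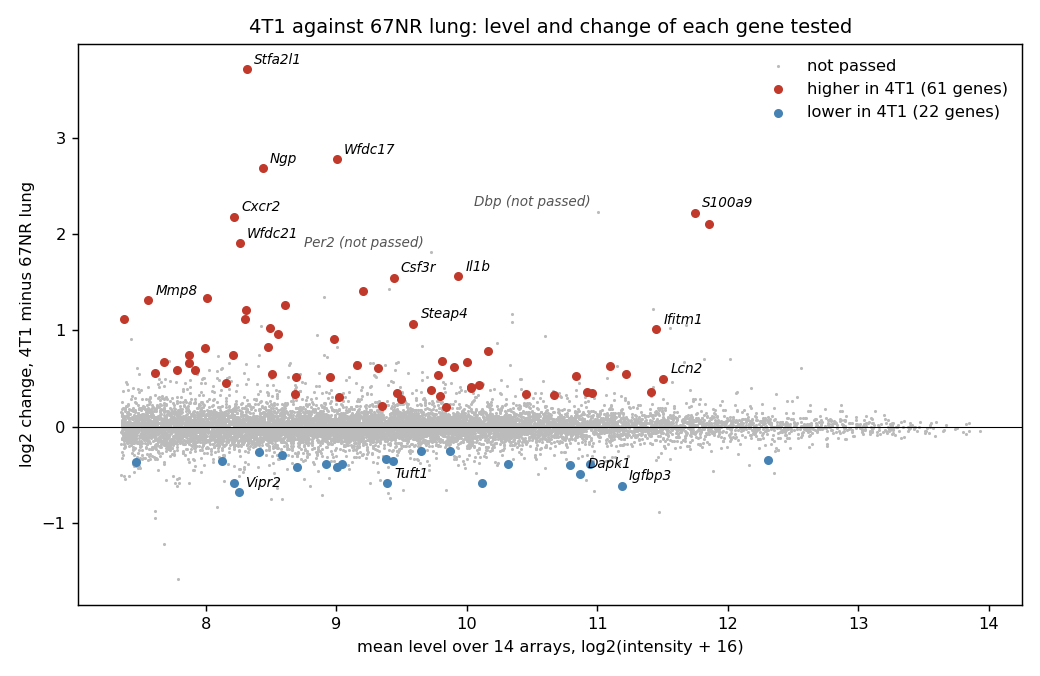
Mean log2 level over the 14 arrays (x axis, log2 of intensity plus 16) against the log2 change, 4T1 minus 67NR lung (y axis), for each gene tested. Red points are the 61 genes higher and blue points the 22 genes lower in 4T1 lung at an adjusted p under 0.05, and grey points did not pass; the higher genes reach 3.71 and the lower ones -0.68, while Dbp and Per2, with changes of 2.23 and 1.81, did not pass.

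Genes of neutrophils led the higher genes. The neutrophil list held 45 genes, of which 24 were tested, and 17 of the 24 were higher, 0 lower and 7 did not pass. The list had been compiled with earlier results of these data known, so its count is a description. Its median log2 change was 1.12, beside a median near 0 over all genes. Because the filter used the mean of all 14 arrays, it favoured genes high in 4T1 lung. The 11 list members below it all had positive differences too, from 0.007 to 3.36. Of these 11, only Camp and Stfa3 passed in a fit of all genes without the filter. The summed intensity of the list's 35 genes with a value lay between 55970 and 69792 on 4T1 arrays, between 34840 and 40288 on 67NR arrays and between 33938 and 38012 on normal arrays. Since bulk tissue was measured, more cells of a type and more RNA per cell cannot be told apart.

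The 6 called genes with the largest changes are shown by the 250 bases before their RefSeq transcription start, because myeloid granule and S100 genes are textbook targets of C/EBP factors. A C/EBP core was searched as TTNNGNAA on both strands, and matches are in capitals. The sequences are RefSeq's in GRCm38.p6, each 5′ to 3′ on the strand of the gene. Stfa2l1 lies at chr16:36156561-36156810 on the plus strand, Ngp at chr9:110419558-110419807 on the plus strand, S100a8 at chr3:90668821-90669070 on the plus strand, S100a9 at chr3:90695722-90695971 on the minus strand, Cxcr2 at chr1:74153744-74153993 on the plus strand and Wfdc17 at chr11:83703806-83704055 on the plus strand.
Stfa2l1: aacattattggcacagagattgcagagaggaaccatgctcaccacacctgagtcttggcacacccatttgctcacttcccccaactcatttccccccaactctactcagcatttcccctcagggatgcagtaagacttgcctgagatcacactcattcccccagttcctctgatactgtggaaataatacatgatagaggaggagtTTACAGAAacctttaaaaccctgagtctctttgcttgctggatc
Ngp: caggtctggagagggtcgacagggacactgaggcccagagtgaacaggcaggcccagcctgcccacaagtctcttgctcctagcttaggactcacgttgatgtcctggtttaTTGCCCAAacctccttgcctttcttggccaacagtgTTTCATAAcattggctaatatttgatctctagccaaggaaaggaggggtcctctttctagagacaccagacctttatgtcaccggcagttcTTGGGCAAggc
S100a8: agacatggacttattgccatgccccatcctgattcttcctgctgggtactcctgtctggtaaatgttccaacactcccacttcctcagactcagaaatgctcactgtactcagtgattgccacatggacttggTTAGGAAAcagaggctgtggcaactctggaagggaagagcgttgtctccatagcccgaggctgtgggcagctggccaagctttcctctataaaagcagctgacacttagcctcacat
S100a9: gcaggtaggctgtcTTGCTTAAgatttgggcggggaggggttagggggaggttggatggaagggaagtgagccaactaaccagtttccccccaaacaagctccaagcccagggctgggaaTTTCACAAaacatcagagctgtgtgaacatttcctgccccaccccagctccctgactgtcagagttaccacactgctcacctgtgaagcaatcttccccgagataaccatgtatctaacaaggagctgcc
Cxcr2: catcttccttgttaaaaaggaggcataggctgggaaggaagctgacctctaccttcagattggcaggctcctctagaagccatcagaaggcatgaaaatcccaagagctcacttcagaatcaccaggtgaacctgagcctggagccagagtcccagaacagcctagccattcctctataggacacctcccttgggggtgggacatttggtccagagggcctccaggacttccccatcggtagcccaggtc
Wfdc17: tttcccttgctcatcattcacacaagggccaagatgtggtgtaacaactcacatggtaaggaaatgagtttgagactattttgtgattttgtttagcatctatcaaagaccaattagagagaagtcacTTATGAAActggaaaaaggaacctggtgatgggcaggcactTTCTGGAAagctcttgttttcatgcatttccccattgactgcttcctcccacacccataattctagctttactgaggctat
The Cxcr2 sequence holds no match, and neither did the windows of Csf3r and Pglyrp1. Over windows from 250 bases before to 50 after the start, 31 of the 48 higher genes with a promoter in the RefSeq table held at least 1 match (64.6%), as did 4 of 15 lower genes (26.7%). Among neutrophil list members 16 of 20 did (80%), while 2719 of 8830 tested genes (30.8%) and 40.7% of all 27025 promoters did. Since 17 of the 24 tested list members were among the 61 higher genes, the shares of list and higher genes are not separate results. Base composition differed between the gene sets without following the shares throughout. The median GC content was 54.5% for the higher genes, 65.3% for the lower and 51.2% for the neutrophil list. It was 61% for tested genes and 52.7% for all promoters. The part of base composition in the shares was not tested. The letters occur by chance in many promoters, and a match does not show binding.

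Of granule proteins, 5 of the 9 tested were higher. Ngp, the neutrophilic granule protein, had intensities of 1178, 831, 772 and 2575 in 4T1 lungs and 181, 188, 165, 134 and 194 in 67NR lungs. The groups did not overlap, and 4T1 replicate 4 stood far above the other 4T1 lungs. The log2 change was 2.68 (SE 0.29, limma adjusted p = 0.000180), a 6.41-fold difference. Mmp8, the neutrophil collagenase, measured 340.0, 286, 355 and 427 in 4T1 and 151, 115, 131, 129 and 131 in 67NR lungs, so the log2 change was 1.31 (SE 0.10, limma adjusted p = 4.38e-06). Its lowest 4T1 lung was above its highest 67NR lung, and the values within each group were close. The gelatinase Mmp9 measured 893, 533, 928 and 599 in 4T1 and 335, 295, 237, 257 and 342 in 67NR lungs, and its log2 change was 1.26 (SE 0.16, limma adjusted p = 0.00110). A second Mmp9 probe set changed by 1.69. Pglyrp1, a peptidoglycan recognition protein stored in granules, changed by 1.12 (limma adjusted p = 0.000148). Lcn2, a siderophore-binding protein made by neutrophils and also by airway epithelium, had 3288, 3198, 4131 and 3649.8 against 2303, 2507, 2533, 2849 and 2373, a smaller change of 0.50 (limma adjusted p = 0.00902) from a high level in all lungs. Relative to normal lungs, Lcn2 had log2 differences of 0.32 for 4T1 and -0.18 for 67NR lungs.

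The granule genes that did not pass were Ltf, Chil3, Hp and Lyz2. Lactoferrin, encoded by Ltf, had a log2 change of 0.72 with intensities of 697, 585, 613 and 900.4 in 4T1 and 556, 381, 712, 242 and 317 in 67NR lungs (limma adjusted p = 0.346). Its groups overlapped. Lysozyme 2, encoded by Lyz2 and shared with macrophages, had a change of -0.04, haptoglobin (Hp) of -0.11 and Chil3, also made by alveolar macrophages, of -0.18. The azurophil granule genes of promyelocytes lay below the level filter. Mpo, Elane and Ctsg had differences of 0.59, 0.22 and 0.03, and Prtn3 one of 1.48; none passed in a fit without the filter (adjusted p = 0.343, 0.573, 0.945 and 0.152). Prtn3 measured 129, 100.2, 49.6 and 112 in 4T1 and 49.2, 20.2, 18.5, 20.1 and 15.3 in 67NR lungs, so its groups did not overlap.

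Of secreted and cytosolic neutrophil proteins, 7 of the 7 tested were higher. Stfa2l1, a stefin of the cystatin family of cysteine protease inhibitors, measured 3199.7, 1421, 1423 and 2713 in 4T1 lungs against 228, 76.1, 197, 168 and 97 in 67NR lungs and 126, 106, 115, 123 and 172 in normal lungs. Replicates 1 and 4 were the higher pair of 4T1 lungs, and every 4T1 lung was above every 67NR lung. The log2 change was 3.71 (SE 0.30, limma adjusted p = 1.15e-05), the largest of any gene tested. The stefin genes are near-identical copies, so signal of 1 copy may be read by probes of another. S100a8 and S100a9, which form calprotectin, are the classic cytosolic proteins of neutrophils. S100a8 measured 11774, 9333, 11658 and 12329 in 4T1 and 3422, 2202, 2569, 2718 and 2254 in 67NR lungs, and its log2 change was 2.10 (SE 0.19). S100a9 measured 11451, 9199, 12126 and 11441 in 4T1 and 3398, 1961, 2109.8, 2451 and 2059 in 67NR lungs, a change of 2.22 (SE 0.19, limma adjusted p = 1.37e-05, and 2.30e-05 for S100a8). In both genes 4T1 replicate 2 was the lowest 4T1 lung and 67NR replicate 1 the highest 67NR lung, and the gap between the groups was wider than the spread within either.

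The cytokine gene Il1b measured 2407, 1444, 3085 and 2169.8 in 4T1 and 1063, 530.0, 787, 740.4 and 645 in 67NR lungs, for a change of 1.56 (SE 0.23, limma adjusted p = 0.00370). Replicate 3 was the highest and replicate 2 the lowest 4T1 lung, still above 67NR replicate 1. Wfdc21, a whey acidic protein family member, changed by 1.91 from values of 155 to 221 in 67NR to 521 to 888 in 4T1 lungs (limma adjusted p = 3.19e-06). The MYC antagonist Mxd1, which rises as granulocytes mature, changed by 0.61 (limma adjusted p = 0.00119), with 801 to 974 in 4T1 and 507 to 642 in 67NR lungs. Mxd1 passed in 29 of the 30 alternative settings, including all 14 that left out 1 array, with a highest limma adjusted p of 0.311. The aspartic protease gene Asprv1 changed by 1.12 (limma adjusted p = 0.0153), and it missed the threshold without 4T1 replicate 1 or 4 (adjusted p = 0.0575 to 0.0644). These 4 genes had groups that did not overlap.

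Of surface receptors in the list, 5 of the 8 tested were higher. Cxcr2, the receptor for neutrophil-attracting CXC chemokines, measured 871, 672, 1055 and 1099 in 4T1 lungs, 272, 139, 189, 209.6 and 155 in 67NR lungs and 193, 119, 163, 151 and 175 in normal lungs. Its log2 change was 2.18 (SE 0.18, limma adjusted p = 1.37e-05), a 4.53-fold difference. The 67NR and normal lungs overlapped, and the lowest 4T1 lung was well above both. Csf3r, the G-CSF receptor, measured 1714, 1341, 1855 and 1568 in 4T1 and 844, 443, 522, 420.2 and 556 in 67NR lungs, giving a change of 1.55 (SE 0.20, limma adjusted p = 0.00119). As for Il1b and the S100 genes, 67NR replicate 1 was the highest 67NR lung. The C-type lectin receptor Clec4d measured 489, 466, 648 and 528 against 207, 208, 203, 194 and 185, a change of 1.34 (SE 0.10, limma adjusted p = 3.19e-06) with tight groups on both sides.

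The inhibitory receptor Cd300lf changed by 1.02 (limma adjusted p = 3.47e-05) and the formyl peptide receptor Fpr2 by 0.43 (adjusted p = 0.0336). Fpr2 missed the threshold without 4T1 replicate 1, 3 or 4 or 67NR replicate 2 or 3 (adjusted p = 0.0668 to 0.118). The Fc receptor Fcgr4, the amplifying receptor Trem1 and the beta 2 integrin Itgb2 had changes of 0.37, 0.39 and 0.15 that did not pass (limma adjusted p = 0.0544, 0.206 and 0.554). Below the level filter, Itgam, the alpha chain that pairs with Itgb2, had a difference of 0.68, the decoy receptor Il1r2 of 1.30 and Clec4e, the neighbour and partner of Clec4d, of 1.39. None of these 3 passed without the filter at the probe set used (adjusted p = 0.156, 0.156 and 0.235). A second Clec4e probe set did pass when all probe sets were tested one by one, with a change of 1.76 (limma adjusted p = 0.00977). No probe set carried Ly6g or Retnlg alone, so these markers were not analysed here.

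**Figure D2:**
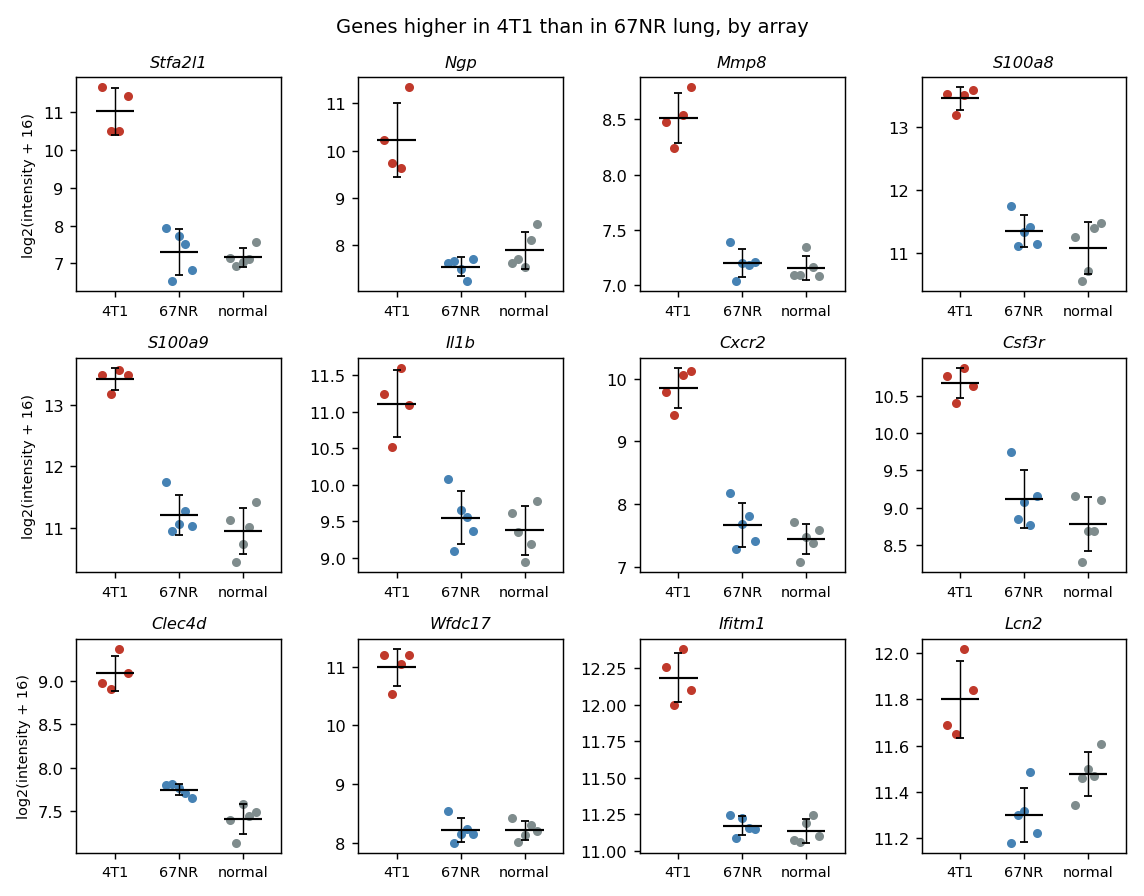
Log2(intensity + 16) on each array (y axis) for 12 genes higher in 4T1 than in 67NR lung, with the 4 4T1, 5 67NR and 5 normal lungs along the x axis. Dots are arrays in replicate order, thick lines group means and bars 1 SD either way; in each panel all 4T1 dots lie above all 67NR dots, and the y axes differ between panels and do not start at 0.

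Those ligands and growth factors acting on neutrophils that could be tested did not pass. Of 25 chemoattractant and growth factor genes with a value, only 11 were tested, and the rest lay below the level filter. Of the 11 tested genes 0 passed (the smallest limma adjusted p was 0.0847), with a median log2 change of -0.03. Cxcl15, the lung's epithelial CXC chemokine, had a difference of -0.09, the marrow retention ligand Cxcl12 of -0.03, Cxcl1 of -0.16 and Ccl6, a CC chemokine made by myeloid cells, of 0.27 (limma adjusted p = 0.752, 0.940, 0.443 and 0.0847). Csf3, the G-CSF gene itself, was dim in the lung, with intensities of 21, 20.6, 18.3 and 20.8 in 4T1 and 18.9, 20.9, 20.2, 17 and 22.8 in 67NR lungs (difference 0.01, adjusted p = 0.976 without the filter). Prok2, a myeloid-derived attractant induced by G-CSF, was dim in 67NR lungs at 4.67, 10.2, 51.1, 5 and 57.5 and brighter in 4T1 lungs at 174, 82.2, 157 and 174. The Prok2 groups did not overlap, and the difference of 2.15 did not pass without the filter (adjusted p = 0.116).

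Wfdc17 stood out among the families of small secreted and interferon-inducible proteins. It measured 2332, 1456, 2082 and 2318 in 4T1 lungs against 356, 239, 268, 285 and 267 in 67NR and 328, 241, 264, 298 and 277 in normal lungs. Its log2 change was 2.77 (SE 0.14, limma adjusted p = 1.00e-07), the smallest p of any gene, and the 67NR and normal lungs shared one narrow range. Of 11 tested members of the whey acidic protein, schlafen and Ifitm families, 5 were higher and 0 lower, with a median of 0.47. Ifitm1, an interferon-induced transmembrane protein, measured 4897, 4080.0, 5332 and 4386 in 4T1 and 2414, 2164, 2377, 2268 and 2251 in 67NR lungs (change 1.01, SE 0.071, limma adjusted p = 3.19e-06). Its relatives Ifitm2 and Ifitm3 had differences of 0.05 and -0.04 (limma adjusted p = 0.720 and 0.768).

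Ifitm6 measured 653, 329, 845 and 781 against 356, 226, 216, 227 and 274, so 4T1 replicate 2 lay within the range of the 67NR lungs. Its change of 1.22 passed narrowly (limma adjusted p = 0.0398), and it missed the threshold without 4T1 replicate 1, 3 or 4, 67NR replicate 2, 3 or 4 or normal replicate 1, 2 or 5 (adjusted p = 0.0539 to 0.137). The schlafen gene Slfn4, a myeloid member of its family, measured 941, 1147, 1869 and 1686 in 4T1 and 673, 442, 458, 443 and 533 in 67NR lungs, a change of 1.40 (limma adjusted p = 0.0149). It missed the threshold without 4T1 replicate 4 (adjusted p = 0.0633). Slfn1 changed by 0.75 and missed the threshold without 4T1 replicate 1, 3 or 4 or 67NR replicate 2, 3 or 4 (adjusted p = 0.0775 to 0.111). Slfn2 (0.46), Slpi (0.47), Slfn5 (-0.27) and Wfdc2 (0.07) did not pass (limma adjusted p = 0.0711, 0.0847, 0.194 and 0.729). Of 18 tested genes of the type I interferon response 0 passed, with a median of -0.01, and Rtp4, Ddx58, Xaf1 and Ifit3 had differences of -0.02, -0.01, -0.13 and 0.12.

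Enzymes of oxidant and lipid mediator production were also among the higher genes. Of 14 tested genes of NADPH oxidase and eicosanoid synthesis 3 were higher and 0 lower, with a median of 0.09. Pla2g7, which degrades platelet-activating factor, measured 886, 674, 892 and 748 in 4T1 and 530.1, 348, 408, 407 and 399.8 in 67NR lungs (change 0.91, SE 0.11, limma adjusted p = 0.000970). Alox5ap, the protein that presents arachidonate to 5-lipoxygenase, measured 3308, 2462, 3381 and 2933 against 2088, 1805, 1887, 1897 and 1983 (change 0.63, limma adjusted p = 0.00794). Neither gene's groups overlapped. The oxidase subunit Ncf4 changed by 0.64 (limma adjusted p = 0.0160) and missed the threshold without 4T1 replicate 1 or 4 (adjusted p = 0.0586 to 0.0598). The membrane subunits Cyba and Cybb had differences of 0.09 and -0.06, the GTPase Rac2 of 0.49 and the prostacyclin synthase Ptgis of 0.23, and these did not pass (limma adjusted p = 0.607, 0.872, 0.165 and 0.348). Rac2 passed in the fit without 4T1 replicate 2.

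Among pattern recognition and lectin receptors of myeloid cells 2 of 18 tested genes were higher, with a median of 0.14. Tlr13, an endosomal sensor of bacterial ribosomal RNA, measured 270.3, 246, 318 and 276 in 4T1 and 213, 154, 159, 166 and 153 in 67NR lungs (change 0.67, limma adjusted p = 0.00791). The inhibitory receptor Pirb changed by 0.66 (limma adjusted p = 0.0357), and it missed the threshold without 4T1 replicate 1, 3 or 4 or 67NR replicate 2, 3 or 4 (adjusted p = 0.0726 to 0.0899). Clec7a, Clec4n, Cd14 and Clec4a3 had changes of 0.30, -0.05, 0.12 and 0.12 that did not pass. Among adhesion molecules 1 of 16 passed, with a median of 0.04. It was Selplg, the P-selectin ligand of leukocytes, at 1418, 1054, 1601 and 1273 in 4T1 and 1043, 746, 782, 904 and 817 in 67NR lungs (change 0.62, limma adjusted p = 0.0232). Selplg missed the threshold without 4T1 replicate 1, 3 or 4 or 67NR replicate 2 or 3 (adjusted p = 0.0595 to 0.0882). The endothelial counter-receptors Icam1, Icam2 and Pecam1 and the broadly expressed Cd47 had differences of -0.04, -0.10, -0.14 and -0.01 and did not pass.

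Of the 61 higher genes 29 belonged to no list, and those described in this paragraph were chosen after their values were seen. Ccr1, a CC chemokine receptor of neutrophils and monocytes, measured 595, 489, 798 and 589.6 in 4T1 and 313, 308, 262, 320.2 and 327 in 67NR lungs, a change of 0.96 (SE 0.12, limma adjusted p = 0.000591). Tgfbi, an extracellular matrix protein induced by TGF-beta and made by macrophages among other cells, measured 3163, 2569.7, 3584 and 2853 against 2059, 1916, 2136, 2115 and 2068 (change 0.55, limma adjusted p = 0.00294). Its 4 probe sets gave changes between 0.52 and 0.55. Fgl2, a fibrinogen-like protein secreted by immune cells, changed by 0.67 (limma adjusted p = 0.00944), Csf2rb, the beta chain shared by the GM-CSF, IL-3 and IL-5 receptors, by 0.53 (adjusted p = 0.0232) and Ogfrl1 by 0.52 (SE 0.055, adjusted p = 0.000148). The groups of these 5 genes did not overlap. Csf2rb missed the threshold without 4T1 replicate 1 or 4 or 67NR replicate 2 (adjusted p = 0.0628 to 0.0673). Gda, guanine deaminase, changed by 0.68 (limma adjusted p = 0.0292), and its other 2 probe sets changed by 0.71 and 0.72. Gda missed the threshold without 4T1 replicate 1, 3 or 4 or 67NR replicate 1, 3 or 4 (adjusted p = 0.0595 to 0.0882).

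For some higher genes the 67NR lungs lay below the normal lungs while the 4T1 lungs lay near them. These were picked after their values were seen, except Nt5e, which was a gene of prior interest. Nt5e encodes CD73, the ectoenzyme that makes adenosine from AMP. It measured 1226, 1199.9, 1036 and 1195 in 4T1, 941, 813, 906, 882 and 808 in 67NR and 1086, 1085, 1062, 1109.8 and 1204 in normal lungs, a change of 0.41 (SE 0.063, limma adjusted p = 0.00521). Every 67NR lung was below every 4T1 and every normal lung, while 4T1 and normal lungs overlapped. Nt5e passed in 29 of the 30 alternative settings of the fit, including all 14 that left out 1 array. Over the 30 its change ran from 0.20 to 0.50, with a highest limma adjusted p of 0.558. Mthfd1l, a mitochondrial folate enzyme, measured 405, 389, 252 and 398 in 4T1, 208, 202, 197, 162 and 271 in 67NR and 350.5, 360.2, 353, 255 and 273 in normal lungs (change 0.75, limma adjusted p = 0.0445). Here 4T1 replicate 3 lay below 67NR replicate 5, and the gene missed the threshold without 4T1 replicate 1, 2 or 4, 67NR replicate 1, 2, 3 or 4 or normal replicate 1, 2, 3 or 5 (adjusted p = 0.0503 to 0.143). The growth factor Gdf10 and the glycolytic regulator Pfkfb4 changed by 0.56 and 0.32 (limma adjusted p = 0.0215 and 0.0169), with log2 differences from normal lung of 0.18 and 0.11 in 4T1 and of -0.38 and -0.21 in 67NR lungs. Gdf10 missed the threshold without 4T1 replicate 1, 2, 3 or 4 or 67NR replicate 1 or 3 (adjusted p = 0.0523 to 0.0747), and Pfkfb4 missed the threshold without 4T1 replicate 1, 3 or 4 (adjusted p = 0.0508 to 0.0716). The 67NR differences from normal lung did not pass for any of these 4 genes.

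Dim genes added to the neutrophil side. When all 18194 genes were tested, 48 were higher (0.264%) and 13 lower (0.0715%), of which 10 and 4 lay below the level filter. Stfa3, another stefin, measured 608, 164, 104 and 556 in 4T1 and 6.46, 30.6, 17.5, 7.87 and 7.64 in 67NR lungs (difference 3.36, limma adjusted p = 0.00286). Camp, the cathelicidin of secondary granules, measured 184, 93.1, 38.7 and 572 against 8.31, 10, 8.47, 6.44 and 9.53 (difference 2.73, limma adjusted p = 0.0299). For both genes 4T1 replicates 1 and 4 were the highest, as for Stfa2l1 and Ngp, and replicate 3 was the lowest 4T1 lung yet above every 67NR lung. Olfm4, a marker of a subset of neutrophils, measured 231, 148, 273 and 257 against 52.5, 37.7, 41.9, 61.8 and 61.4 (difference 1.84, limma adjusted p = 0.00338). The inhibitory lectin Siglece, the NOD-like receptor Nlrp12 and the maltase Mgam had differences of 1.26, 1.23 and 1.19, and the receptor gene Klra17 and the whey acidic protein gene Wfdc18 of 1.36 and 0.77. On the lower side stood Tdgf1, the EGF-CFC ligand Cripto, at 7.17, 5.02, 10.9 and 22.2 against 39.7, 43.9, 48.9, 39.7 and 32.2 (difference -1.09, limma adjusted p = 0.0191), with Vmn1r45 (-0.55), Pcdhb4 (-0.45) and Slc26a6 (-0.42). No detection calls were used, and the highest intensity of these 4 genes on the 9 arrays was 149.

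Of the 22 lower genes 2 belonged to a list, Igfbp3 to growth factors and Hc to complement. Igfbp3 encodes the main circulating binding protein of insulin-like growth factors. It measured 2009, 1635, 2201 and 1692 in 4T1 lungs, 3115, 2708, 3026, 2910.2 and 2606 in 67NR lungs and 1851, 2471, 2263, 2441 and 2089 in normal lungs. All 67NR lungs were above all 4T1 lungs and all normal lungs, and 4T1 and normal lungs overlapped. The log2 change was -0.61 (SE 0.10, limma adjusted p = 0.00944), which is 1.53-fold higher in 67NR lung, and a second probe set changed by -0.71. Of 33 tested growth factor and angiogenesis genes it was the 1 that passed, and Igfbp7, Igfbp4, Igfbp6 and Igfbp2 had differences of -0.08, -0.00, -0.05 and 0.08.

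Vipr2, a receptor for vasoactive intestinal peptide, had the largest drop, with 224, 184, 255 and 213 in 4T1 and 496, 303, 399, 277 and 349 in 67NR lungs (change -0.68, SE 0.14, limma adjusted p = 0.0388). The 67NR lungs were spread widely, with replicate 1 the highest, and the lowest of them was just above the highest 4T1 lung. Il18r1, the ligand-binding chain of the interleukin 18 receptor, measured 899, 826, 994 and 825 against 1434, 1300.3, 1500.4, 1302 and 1134 (change -0.58, limma adjusted p = 0.00730). Dapk1, a calmodulin-regulated kinase that promotes cell death, measured 1458, 1709, 1713 and 1578 against 2458, 2121, 2264, 2448 and 2058 (change -0.49, SE 0.073, limma adjusted p = 0.00517), and its second probe set changed by -0.62. The normal lungs, at 954 to 1186 and 1560.1 to 1920.2, overlapped the 4T1 lungs for both genes. Grk5, a kinase that desensitises G protein-coupled receptors, changed by -0.39 (limma adjusted p = 0.0138).

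Transcription factors, matrix and other enzymes followed. Snai1, the zinc finger repressor known from epithelial to mesenchymal transition, measured 219, 213, 229 and 201 in 4T1, 299.5, 353, 266, 444 and 317 in 67NR and 353, 274, 291, 294 and 267 in normal lungs (change -0.59, limma adjusted p = 0.0330). Here the 4T1 lungs were the distinct group, below every 67NR and every normal lung. The homeobox factor Meox1 changed by -0.42 (limma adjusted p = 0.0161), the aggrecan-cleaving protease Adamts5 by -0.41 (adjusted p = 0.0199) and Tuft1, which encodes tuftelin, by -0.58 (adjusted p = 0.00730). Tuft1 measured 525, 506, 598 and 558 against 895, 858, 777, 882 and 725, with no overlap. Npc1, the lysosomal cholesterol exporter, changed by -0.38, the recycling endosome protein Rab11fip1 by -0.38, the ubiquitin ligase Trim3 by -0.38, the mitochondrial initiation factor Mtif3 by -0.36 and the deiodinase Iyd by -0.36 (limma adjusted p = 0.0153, 0.0239, 0.0357, 0.0292 and 0.00944). Hc, the gene of complement C5, measured 4325, 4578, 4848 and 4364 in 4T1 and 6150.4, 5578, 5650.3, 5835 and 5593 in 67NR lungs (change -0.35, limma adjusted p = 0.0450).

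**Figure D3:**
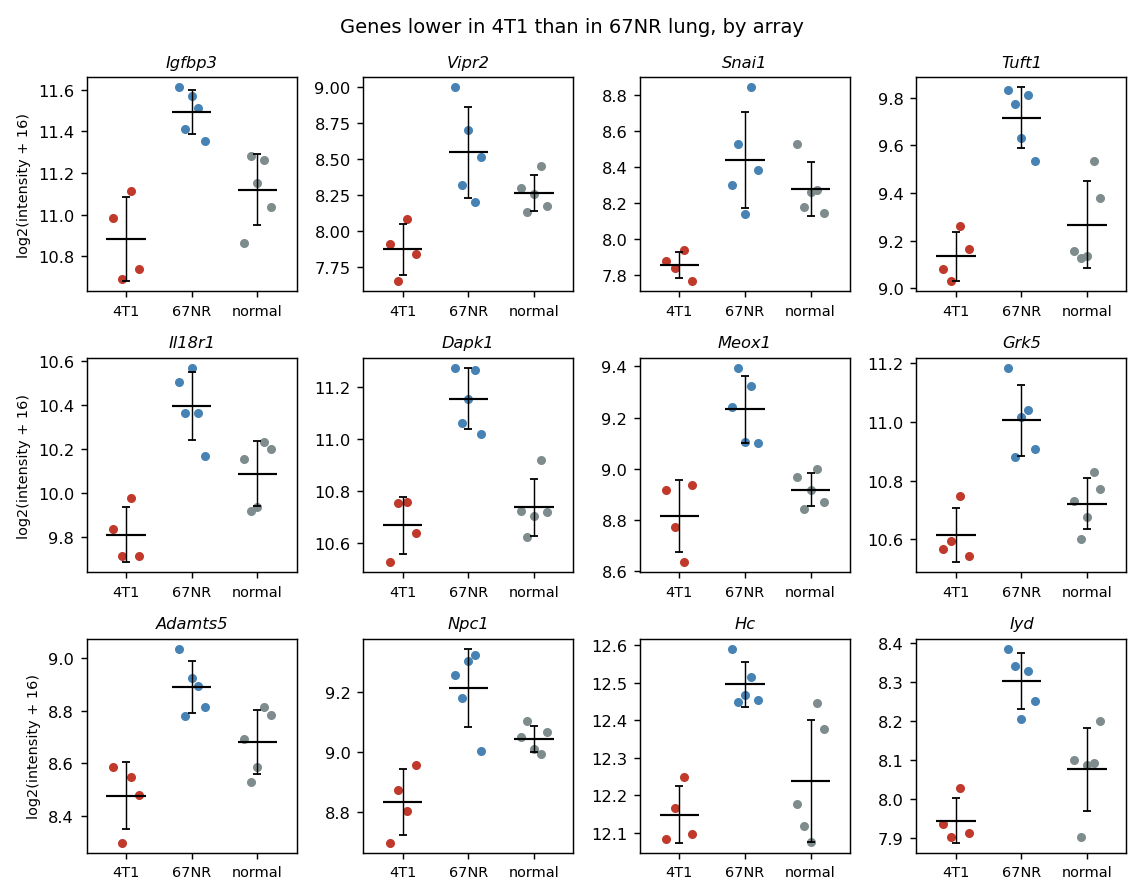
Log2(intensity + 16) on each array (y axis) for 12 genes lower in 4T1 than in 67NR lung, with 4T1, 67NR and normal lungs along the x axis. Dots are arrays in replicate order, thick lines group means and bars 1 SD either way; all 4T1 dots lie below all 67NR dots in each panel, and the normal lungs overlap the 4T1 lungs for most genes. The y axes differ between panels and do not start at 0.

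Relative to normal lung, the 22 lower genes had log2 differences of -0.43 to -0.02 in 4T1 and of 0.06 to 0.45 in 67NR lungs, 2 ranges that share the normal arrays. None of the 22 passed against normal lung in either group. Most of the lower calls were lost in at least 1 fit that left out a single array. Vipr2 missed the threshold without 4T1 replicate 1, 2 or 4, 67NR replicate 3 or normal replicate 1 or 5 (adjusted p = 0.0541 to 0.115). Snai1 missed the threshold without 4T1 replicate 1, 2, 3 or 4 or 67NR replicate 2 (adjusted p = 0.0516 to 0.115). Grk5 missed the threshold without 4T1 replicate 1 or 4 (adjusted p = 0.0575 to 0.0619), and Adamts5 missed the threshold without 4T1 replicate 2 or 4 or 67NR replicate 3 (adjusted p = 0.0524 to 0.0644). Npc1 missed the threshold without 4T1 replicate 1 (adjusted p = 0.0623). Rab11fip1 missed the threshold without 4T1 replicate 1, 2 or 4 or 67NR replicate 2 or 3 (adjusted p = 0.0526 to 0.0761), Trim3 missed the threshold without 4T1 replicate 1 or 4, 67NR replicate 1, 2, 3 or 4 or normal replicate 1 (adjusted p = 0.0563 to 0.115) and Mtif3 missed the threshold without 4T1 replicate 2, 3 or 4 or 67NR replicate 2 or 3 (adjusted p = 0.0613 to 0.112). Hc missed the threshold without 4T1 replicate 1, 2 or 4, 67NR replicate 1, 2, 3 or 4 or normal replicate 1 (adjusted p = 0.0626 to 0.142). Igfbp3, Il18r1, Tuft1, Dapk1, Meox1 and Iyd passed in all 14 fits that left out 1 array. Rhoj, also among the 22, passed in 4 of these fits. Its changes over the 30 alternatives ran from -0.43 to -0.22. With the mean level of 8 clock genes as a covariate 7 genes were lower, and Snai1 was the 1 of the 22 among them. Without 67NR replicates 1 and 3, the lungs with the lowest clock output, 12 genes were lower, and Snai1, Tuft1, Dapk1, Meox1 and Iyd were the 5 of the 22 among them. The same fits called 46 and 36 genes higher, of which 35 and 33 were among the 61.

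Among tested genes that did not pass, the 3 largest positive changes were of the clock genes Dbp, Per2 and Hlf. Of 15 tested genes of the clock's negative limb and output 0 passed, all 15 had positive changes and their median was 0.94. An unadjusted limma p under 0.05 was reached by 13 of the 15, beside 1358 of all 10916 tested genes. Since 67NR replicate 1 was the lowest of the 9 arrays for 12 of the 15, these are not independent observations. The smallest limma adjusted p was 0.0735, for Per3. Dbp, an output transcription factor, measured 4018, 3421, 3215 and 3432 in 4T1, 98.3, 1861, 179.9, 1574 and 3549 in 67NR and 4032, 3961, 3371, 3212 and 3671 in normal lungs. Replicates 1 and 3 of the 67NR group were far below every other lung, and replicate 5 was at the level of 4T1 and normal lungs. The change of 2.23 had an SE of 0.78 (limma adjusted p = 0.244). The core repressor Per2 measured 1254, 2172, 902 and 1855 in 4T1 and 98.7, 526, 325, 670.2 and 899 in 67NR lungs (change 1.81, SE 0.51, limma adjusted p = 0.135). Its groups did not overlap, and 67NR replicate 1 was again the lowest.

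Ciart, a clock-controlled repressor, is shown for its E-boxes, CACGTG, the element bound by CLOCK and ARNTL, which are in capitals. The 250 bases before its RefSeq start lie at chr3:95882229-95882478 on the minus strand of GRCm38.p6, printed 5′ to 3′ on the strand of the gene.
Ciart: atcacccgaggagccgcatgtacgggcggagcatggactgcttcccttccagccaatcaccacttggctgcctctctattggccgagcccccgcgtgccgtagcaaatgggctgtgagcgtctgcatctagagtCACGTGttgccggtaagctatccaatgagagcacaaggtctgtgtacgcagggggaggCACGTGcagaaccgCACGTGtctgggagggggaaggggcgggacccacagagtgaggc
Its window from 250 bases before to 50 after the start held 3 matches. At least 1 match was found in 4 of 12 clock genes with a promoter in the table (33.3%), in 10.2% of tested genes and in 0 of the 48 higher genes, searched on both strands. Ciart measured 279.9, 378, 253 and 339 in 4T1 and 156, 215, 182, 172 and 291 in 67NR lungs, a change of 0.60 (limma adjusted p = 0.167). Here too 67NR replicate 1 was the lowest, and replicate 5 lay within the 4T1 range.

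Hlf and Tef, output factors related to Dbp, had changes of 1.43 and 1.02, and the nuclear receptors Nr1d2 and Nr1d1 of 1.06 and 0.44. Per3 and Per1 had changes of 1.04 and 0.94, Cry1 and Cry2 of 0.63 and 0.56, and Bhlhe40 of 0.33. The clock-controlled kinase Wee1, the deubiquitinase Usp2 and the glucocorticoid-induced Tsc22d3 had changes of 0.95, 0.67 and 0.71. In the opposite limb Clock had a change of -0.65 (limma adjusted p = 0.0969), Arntl of -0.24 and Rora of 0.13, and none passed. Of the 15 genes, 67NR replicate 1 was the lowest of the 9 arrays for 12, replicate 2 for 2, one of them Cry1, and replicate 4 for 1. Replicates 1, 2 and 3 of the 67NR group were below every 4T1 lung for 14 genes each, replicate 4 for 12 and replicate 5 for 7. Without 67NR replicate 5, Ciart, Clock, Hlf, Per3, Tef and Wee1 passed, in a fit that called 109 genes higher and 61 lower. Replicate 5 was the 67NR lung with the highest clock output, so leaving it out necessarily widened the mean clock contrast. Without 67NR replicates 1 and 3 the median of the 15 genes was 0.61.

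**Figure D4:**
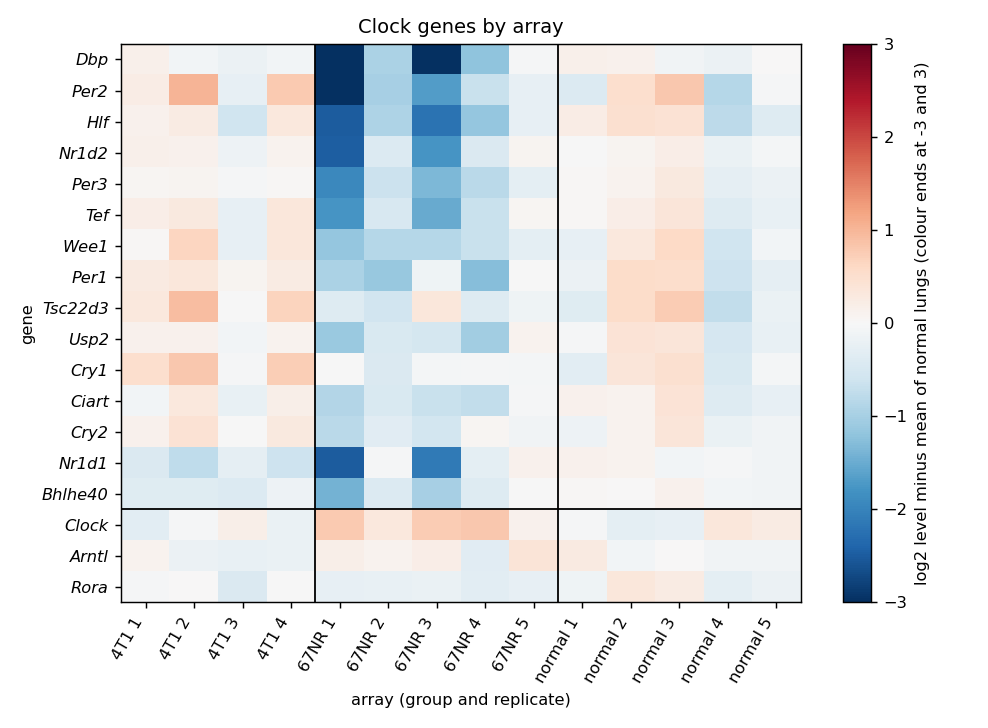
Log2 level of each clock gene (rows) on each of the 14 arrays (columns), minus the mean of the 5 normal lungs; red is higher, blue lower, and colours end at 3 log2 units either way. The 15 genes of the negative limb and output stand above the horizontal line and 3 genes of the opposite limb below it. The darkest blue cells are in 67NR replicates 1 and 3, while 67NR replicate 5 is close to the normal lungs.

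Genes induced by glucocorticoids, which also follow a daily rhythm, had a median change of 0.35 over 20 tested genes, of which 1 passed, Lcn2. Dusp1, Tgm2, Klf9 and Sgk1 did not pass and had differences of 0.08, 0.04, 0.31 and 0.23 (limma adjusted p = 0.913, 0.832, 0.372 and 0.414). Immediate early genes, which respond within minutes to handling of tissue, had a median of -0.00, with 0 of 20 past the threshold. In the unfolded protein response 22 of 25 tested genes had negative changes and 0 passed, with a median of -0.11. Their mean level, relative to each gene's mean, was 0.22, 0.21 and 0.14 in 67NR replicates 2, 4 and 5. It was -0.11 and -0.10 in 67NR replicates 1 and 3 and -0.11 to 0.01 in 4T1 lungs, so the 25 genes are not independent observations. The chaperone genes Hsp90b1, Calr and Hspa5 of this response had differences of -0.12, -0.11 and -0.21. Hspa5 passed in the fit with the clock covariate, at -0.49. Heat shock genes had a median of -0.10, with 0 of 18 past the threshold.

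Other blood and immune cells did not show calls. Over 17 tested genes of monocytes and interstitial macrophages the median was -0.03, over 8 of alveolar macrophages 0.06 and over 7 of dendritic cells -0.08, with 0 passing in each. The monocyte receptors Ccr2, Csf1r and Cx3cr1 had differences of 0.00, 0.07 and -0.45 (limma adjusted p = 0.9997, 0.645 and 0.353). T cell genes had a median of 0.05 over 13 genes, natural killer and cytotoxic cell genes 0.02 over 9 and B cell genes -0.01 over 13, again with 0 passing. The cytotoxic T cell chain Cd8a and granzyme B (Gzmb), 2 genes of prior interest, had differences of 0.14 and 0.06 (limma adjusted p = 0.644 and 0.872). Foxp3, the factor of regulatory T cells, was below the level filter with a difference of 0.05. Platelet genes had a median of -0.13, with 0 of 6 past the threshold.

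Mcpt8, a protease of basophils and also a gene of prior interest, was present in both tumour groups. It measured 133, 75, 117 and 132 in 4T1, 67.8, 83, 52.1, 106 and 49 in 67NR and 6.34, 11.2, 11.7, 11 and 13.3 in normal lungs. Every lung of a tumour-bearing mouse was above every normal lung. Between 4T1 and 67NR lungs the groups overlapped, and the difference of 0.59 did not pass without the level filter (limma adjusted p = 0.305). The mast cell genes Cpa3 and Cma1 had differences of -0.06 and 0.02.

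The lung's own cells gave medians near 0. Alveolar type 1 genes had a median of 0.04 over 12 tested genes, type 2 genes -0.05 over 15, airway genes 0.03 over 12, smooth muscle genes 0.05 over 12 and endothelial genes -0.07 over 19, and 0 passed in each. Among type 2 genes Sftpa1, Lyz1, Sftpd and Slc34a2 had differences of 0.04, -0.06, 0.05 and 0.02. Of 26 tested fibroblast and matrix genes 0 passed, with a median of 0.02. Fn1, the fibronectin gene, had a difference of -0.01. The matrix crosslinker Lox measured 408, 612, 577 and 605 in 4T1 and 1046, 633, 898, 865 and 716 in 67NR lungs, and its change of -0.58 did not pass (limma adjusted p = 0.129) although the groups did not overlap. Elastin (Eln), named after its values were seen, had a change of -0.88 that did not pass either (adjusted p = 0.0855).

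Genes of tissues that adjoin the lung varied between arrays. Adipose genes had a median of 0.22 over 7 tested genes with 0 past the threshold, and their summed intensity ran from 5131 to 12953 in 4T1 and from 4036 to 8173 in 67NR lungs, highest in 4T1 replicate 3. Cardiac genes had a median of 0.03 over 13 genes with 0 past the threshold. The atrial peptide Nppa, named after its values were seen, measured 735, 1063, 649 and 1381 in 4T1 and 340.0, 184, 1659, 296 and 158 in 67NR lungs, so 67NR replicates held both the lowest and the highest value. Genes of mammary epithelium and carcinoma, which could mark tumour cells in the lung, had a median of -0.09 over 11 tested genes with 0 past the threshold. The summed intensity of the whole list was 15579 to 16687 in 4T1 and 16118 to 16712 in 67NR lungs. Of 6 defining genes, basal keratin Krt14 measured 44.9 to 73.8 and the milk protein Wap 61.5 to 101 over the 9 arrays. Krt5 measured 43.3 to 158 in 4T1 and 15.3 to 86.4 in 67NR lungs, Krt6a 175 to 302 and 127 to 195, and the casein Csn2 15.7 to 156 and 13.5 to 69.6. The 4T1 and 67NR lungs overlapped for these 5 genes, with differences of 1.06 for Krt5, 0.47 for Krt6a and 0.90 for Csn2 that did not pass (limma adjusted p = 0.433 for Krt6a, and 0.491 and 0.656 without the filter for the dim Krt5 and Csn2). Ly6d, at 119 to 145.5 in 4T1 and 109 to 118.6 in 67NR lungs, did not overlap and did not pass without the filter either (difference 0.16, adjusted p = 0.501). Whether tumour cells contributed to any change was not tested.

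Antigen presentation genes had mostly small negative changes, 23 of 24 below 0 with a median of -0.08, and 0 passed. Their mean level, relative to each gene's mean, overlapped at -0.16 to 0.07 in 4T1 and -0.01 to 0.15 in 67NR lungs. The 24 genes are not independent observations either. Beta 2 microglobulin (B2m), the invariant chain Cd74 and the class I heavy chains H2-D1 and H2-K1 had differences of -0.04, -0.00, -0.07 and -0.07. Cell cycle genes had a median of 0.14 with 0 of 14 past the threshold, and Pcna, Mcm2, Mcm3 and Mcm5 had differences of -0.01, 0.26, 0.17 and 0.30. Respiratory chain genes, at a median of -0.01 over 27 genes, and genes of cholesterol and fatty acid synthesis, at -0.03 over 19, held 0 calls. Glycolysis and hypoxia genes had a median of 0.04 over 22 genes with 0 calls.

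Factors described for the premetastatic niche, the site that a distant tumour prepares before cells arrive, had 5 of 24 tested genes higher and 0 lower, with a median of -0.01. The 5 were S100a9, S100a8, Il1b, Mmp9 and Lcn2, each of which is also in the neutrophil list. Ctsc, Fn1, Postn and Vegfa did not pass and had differences of -0.03, -0.01, 0.02 and 0.11. Saa3, a serum amyloid A gene, had a difference of 0.51, Tgfb1 of -0.02 and Ptgs2, the inducible cyclooxygenase, of -0.43 (limma adjusted p = 0.201, 0.932 and 0.362). Ptgs2 passed without 67NR replicate 5. Vcan, Il6 and Arg1 lay below the level filter with differences of 0.10, -0.02 and -0.04.

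Of 15 tested acute phase genes 3 were higher, with a median of 0.17. Steap4, a metalloreductase induced by inflammation, measured 1165, 1141, 1703 and 1337 in 4T1 and 729, 586, 652, 578 and 566 in 67NR lungs, a change of 1.07 (SE 0.11, limma adjusted p = 0.000124). The groups were far apart, and the normal lungs, at 523 to 641, overlapped the 67NR lungs. Lrg1, a leucine-rich glycoprotein of neutrophils, liver and endothelium, changed by 0.79 (limma adjusted p = 0.0153), and it missed the threshold without 4T1 replicate 1 or 4 (adjusted p = 0.0509 to 0.0525). Cebpb and Cebpd, 2 factors of the C/EBP family, had differences of 0.17 and 0.67, and Stat3 of -0.00; these did not pass (limma adjusted p = 0.697, 0.323 and 0.997).

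Complement genes had a median of -0.01, and of 18 tested 1 was lower, Hc, and 0 were higher. The C5a receptor gene C5ar1 had a difference of 0.29 (limma adjusted p = 0.326) at the probe set used and of 0.64 at another. That other probe set passed when all probe sets were tested one by one (limma adjusted p = 0.0338). C5ar1 also passed when its probe sets were averaged. Rps19, whose product is a ribosomal ligand of that receptor, had a difference of -0.04 (limma adjusted p = 0.746). Among 14 tested genes of myeloid suppression 4 were higher, namely S100a9, S100a8, Arg2 and Nt5e, and the median was near 0. Arg2, the mitochondrial arginase, measured 489, 554, 522 and 458 in 4T1 and 279, 237, 317, 317 and 251 in 67NR lungs (change 0.82, limma adjusted p = 0.0218). It missed the threshold without 4T1 replicate 1, 2 or 3 or 67NR replicate 2 (adjusted p = 0.0524 to 0.0658). The normal lungs ranged from 229.9 to 441, and the highest of them lay just below the lowest 4T1 lung.

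**Figure D5:**
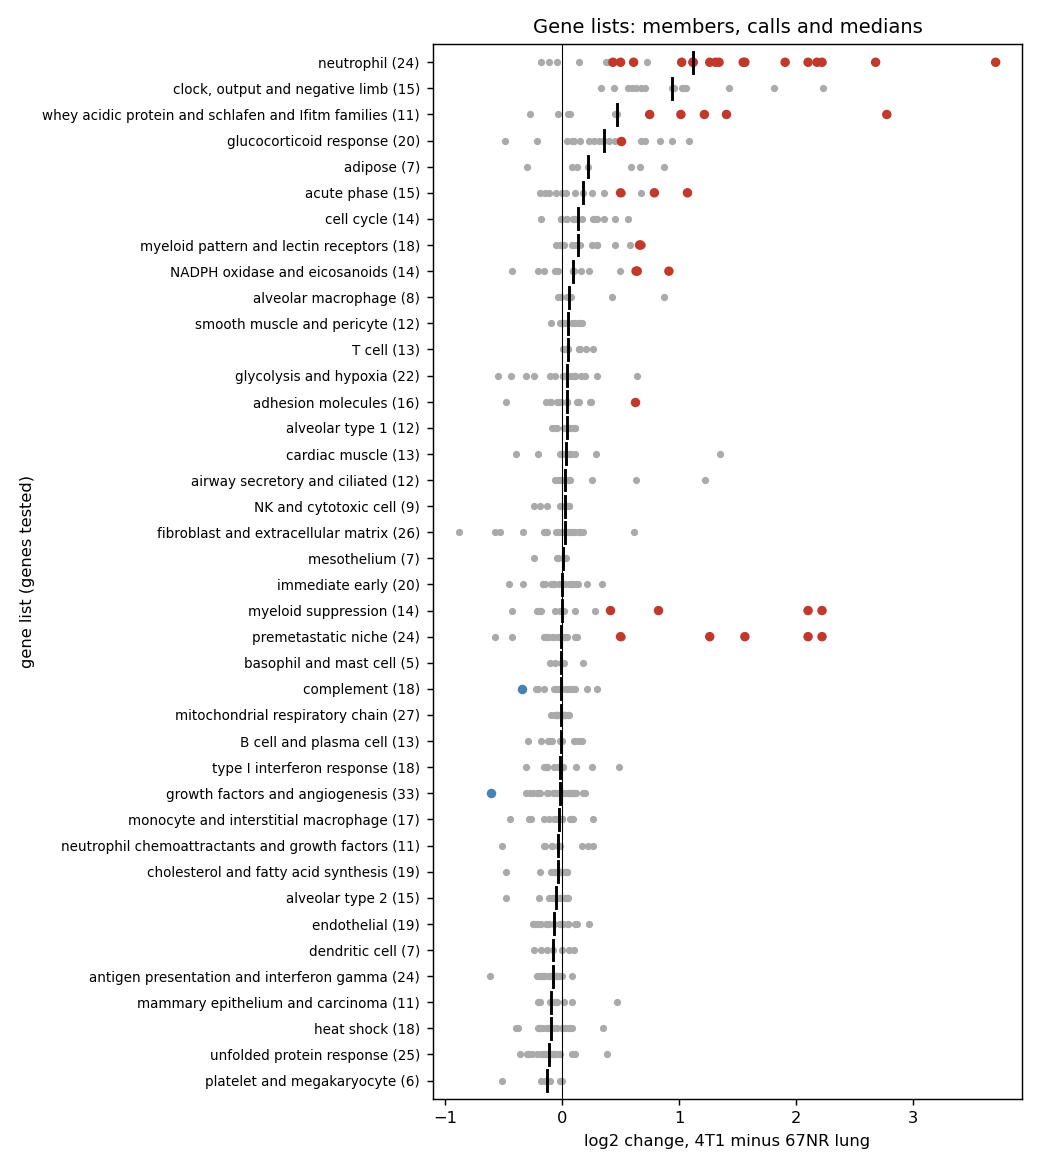
Log2 change, 4T1 minus 67NR lung (x axis), of every tested gene of the lists with at least 5 tested genes (rows, ordered by median, with the number tested). Red points were higher and blue points lower at an adjusted p under 0.05, grey points did not pass, and black bars are list medians. The neutrophil list has the highest median, 1.12, and holds 17 of the red genes; the clock list below it, at 0.94, has none.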

How the data were processed

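Lung RNA was measured on Affymetrix mouse arrays, 1 per sample, with 3 µg of total RNA entering cDNA synthesis per the labels' protocols. The deposited table holds linear probe set intensity values per array; the authors' summarisation, background correction and normalisation are not given in the sources used here. No detection call was used, and array number limits precision.

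Of 45101 probe sets, 34958 carried 1 symbol in the platform annotation of 2016, 932 several and 9211 none, controls included. Each of 18194 genes was represented by its probe set of highest mean, and the upper 60% by mean level was tested. Samples were grouped by title. Log2(intensity + 16) was fitted with 1 mean per group over all 14 arrays in limma 3.58.1 (R 4.3.3, lmFit and eBayes, two-sided, Benjamini-Hochberg over 10916 genes). Fold changes on this scale understate changes of dim genes. The steps were tested on simulated data.

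The members, lists and alternatives were chosen with earlier results of these data known, and old symbols in the lists (such as C5 for Hc) were updated through RefSeq synonyms. Named genes were the 15 largest changes each way, up to 6 passing and 4 other members per list, 24 genes of prior interest, up to 8 dim genes each way and the clock genes. Chosen outside this rule, after their values were seen, were Asprv1, Ccr1, Ccr2, Cd300lf, Clec4e, Cpa3, Csf2rb, Ctsg, Cx3cr1, Cxcl1, Elane, Eln, Fcgr4, Fgl2, Fpr2, Gda, Gdf10, Igfbp2, Igfbp6, Il1r2, Itgam, Ltf, Mpo, Mthfd1l, Mxd1, Nppa, Ogfrl1, Pfkfb4, Prtn3, Slfn2, Slfn5, Tgfbi and Trem1. Promoter sequences are RefSeq's, GRCm38.p6. Alternatives covered normalisation, filter, offset, probe set choice, variance model, array weights, arrays fitted, replicate number, clock state and each array left out.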

Additional observations from a re-analysis of the deposited data

Results flagged for a closer look

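In the 4T1 and 67NR groups, 382 sets of 4 or 5 arrays were checked for the genes named, and in 20 of them 1 array stood apart from the rest of its group (Dixon's test at the 95% level). Chance alone gives about 1 in 20 such sets. Replicate 3 of the 4T1 group stood apart most often. It was the lowest 4T1 lung for Csf3 (18.3, the others 20.6 to 21.0), Mthfd1l (252, the others 389 to 405), Nr1d2 (3693, the others 4463 to 4632), Nt5e (1036, the others 1195 to 1226), Rora (681, the others 903 to 922), Sftpa1 (13410, the others 15200 to 15420) and Usp2 (757, the others 854 to 874). It was the highest 4T1 lung for Arg1 (29.1, the others 19.9 to 21.2).

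In other 4T1 lungs, Arntl was highest in replicate 1 at 212.5 against 164 to 170.3. Replicate 1 was lowest for Gdf10 at 208 against 223 to 224 and for Lox at 408 against 577 to 612. Replicate 2 was lowest for Nlrp12 at 121 against 147 to 152 and for Prok2 at 82.2 against 157 to 174. Igfbp6 was lowest in replicate 4 at 3123 against 3512 to 3595.

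In 67NR lungs, replicate 1 was highest for Prtn3 at 49.2 against 15.3 to 20.2 and for Tlr13 at 213 against 153 to 166. Cry1 was lowest in replicate 2 at 217 against 286 to 294. Ccr1 was lowest in replicate 3 at 261.5 against 308 to 327, and Cdh5 in replicate 4 at 4904 against 5774 to 5997. Siglece was highest in replicate 5 at 18.7 against 11.1 to 12.6.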

How the results depend on the processing

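Of the 83 genes called, 24 higher and 0 lower ones passed under each of the 30 alternatives tried. The count of higher genes, 61, was 113 with array weights and 36 without 67NR replicates 1 and 3, and it ranged from 32 to 109 over the 14 fits that left out 1 array. The count of lower genes, 22, was 13 without the filter on dim genes, 71 with array weights, 8 with the 4T1 and 67NR arrays alone, 7 with the clock covariate and 12 without 67NR replicates 1 and 3, and it ranged from 8 to 61 when 1 array was left out. The arrays whose absence moved a count by over 1.5 times were 4T1 replicates 1, 2 and 4 and 67NR replicates 1, 2 and 5. The causes were not tested.

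The labels number the replicates alike in both groups without pairing them, and deviations of same-numbered arrays had correlations of -0.03 to 0.08. With the replicate number as a block in the fit 44 genes were higher and 13 lower, of which 40 and 11 were among the main calls. No called gene changed sign in any alternative. Quantile normalisation gave 58 higher and 22 lower, centring of arrays on the median 63 and 19, and offsets of 1 and 64 gave 59 and 21, and 65 and 23. A fit of all 45037 probe sets other than controls, chosen after seeing the data, gave 60 and 17. Dim genes are understated by the log2(intensity + 16) scale, and no detection calls were used.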

Other observations

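Of the probe sets called when all were tested one by one, 7 higher probe sets and 1 lower probe set matched several gene symbols, and 1 higher and 2 lower ones were unnamed here. These entered no comparison by gene.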
